A study of Mus musculus with 5 samples.

Results

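The genes described here are the mouse chemokine ligands: the Ccl, Cxcl, Cx3cl1 and Xcl1 genes, with Pf4 and Ppbp, 2 CXC chemokines named after platelets. They were taken by gene name from the array's non-control probes, which gave 39 genes of the 36409 genes and unnamed features of the array, on 47 probes and 56 spots. Their levels were compared in cells sorted from skeletal muscle of mdx mice, C57BL/6 animals with a mutated dystrophin gene, widely used to model Duchenne muscular dystrophy. All groups carry this mutation, and no group of wild-type mice was analysed here. The first group was Sca1+ interstitial cells (CD34+, a7-integrin+, Sca1+) of mice given vehicle by intraperitoneal injection for 45 days (2 arrays). The second was the same gate from mice given the histone deacetylase inhibitor trichostatin A (TSA) over the same time, 0.6 mg per kg by the same route (2 arrays). The third was muscle stem cells, MuSC (CD34+, a7-integrin+, Sca1-), of mice given vehicle (1 array). Labels give neither the animals' age nor whether replicates came from separate animals or pools, so p-values speak only for the spread of these arrays around their group, which may be technical.

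Chemokines are small secreted proteins that bind G protein-coupled receptors on leukocytes and other cells and direct their movement. CC and CXC ligands are named for the spacing of their first cysteines; CXC ligands with a Glu-Leu-Arg (ELR) motif attract neutrophils through Cxcr2. Cx3cl1 and Cxcl16 are made as membrane-anchored proteins. In injured and dystrophic muscle, ligands of Ccr2 recruit monocytes, which become macrophages, and stromal cells, endothelial cells, macrophages and myogenic cells can each be a source. Many ligand genes lie in clusters of neighbouring genes, and inflammatory ligands are commonly induced through NF-kB or interferon signalling.

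A level here is the log2 of an array's background-subtracted signal minus the 75th percentile of that signal over the array's non-control spots, so 0 stands for a spot at that percentile. Levels are compared between arrays for 1 probe and never between genes, since probes differ in brightness. With 2 arrays or 1 in a group, the arrays of groups can lie apart without a difference between the groups. Where arrays are said to overlap or not, this only describes them, and the share over all features was not counted. The summed level of a marker list, given in places, adds the signals of different probes and leans on the brightest of them. A gene was tested where all arrays of some group had its probe well above background. This held for 30 of the 39 ligands, 27 of them well above background on all 5 arrays. A gene too dim on all arrays of the lower group was tested only through groups where it was high. Its call is then no support for a difference. Both comparisons use the same 2 vehicle Sca1+ arrays, so they are not independent and their values are only set side by side. On the arrays the 75th percentile of the processed signal ran from 165 to 452, 58.5% to 66.9% of spots were well above background and 0 were saturated. With so few arrays precision is limited: values after ± are standard errors of the fit over 2 arrays in each Sca1+ group and 1 of MuSC, which was assumed to vary like the others.

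The sorted populations were checked against marker genes. Of all features tested, 2.71% were higher and 0.268% lower with TSA at a limma adjusted p under 0.05. In MuSC 10.5% were higher and 11.7% lower. Counts of called genes in every list, here and below, are to be read against these shares. In MuSC, 10 of 10 satellite cell markers were higher than in vehicle Sca1+ cells (limma adjusted p between 0.00141 and 0.0162 over the list), and 15 of 16 markers of fibroadipogenic progenitors, the Pdgfra-expressing stromal cells of muscle, were lower. Of 10 pericyte and smooth muscle markers, 9 were higher in MuSC too and 1 was lower. Their median was 5.08, against 6.02 for the satellite cell markers, so the MuSC array was not marked by satellite cell genes alone. Among the satellite cell markers, Cdh15 was higher by 8.29 ± 0.27 and Chrna1 by 7.99 ± 0.18 on the log2 scale. Calcr was too dim on both vehicle arrays for a measured fold, and Pax7, above that limit on 1 of them, had a fitted difference of 7.62 ± 0.36. The Sca1+ gate with TSA also stood apart from vehicle in markers of other cells. Called higher were 7 of 10 satellite cell markers, 7 of 10 pericyte and smooth muscle markers and 5 of 13 granulocyte and mast cell markers, these 5 all mast cell genes. With 1 TSA array left out, whichever it was, no feature of the array passed for TSA, these markers included. Their part in the chemokine results below was not tested. In bulk RNA of sorted cells, fewer cells of a type and less RNA per cell cannot be told apart.

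**Figure D1:**
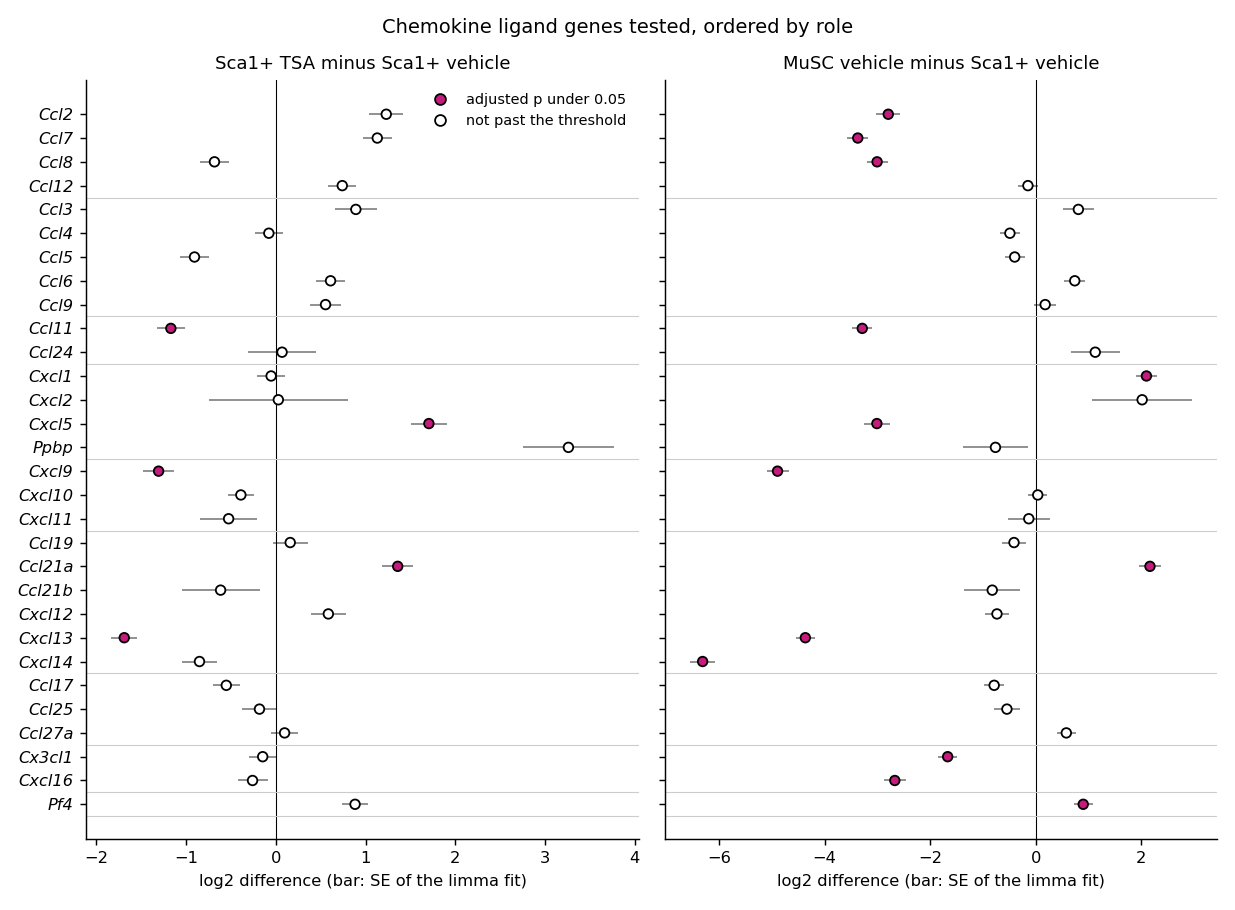
Fitted log2 differences of the 30 tested chemokine ligands, TSA minus vehicle in Sca1+ cells (left) and MuSC minus vehicle Sca1+ cells (right), ordered by role, with grey lines between roles and bars for the SE of the limma fit. Filled points passed the adjusted threshold of 0.05: 5 on the left, 2 higher and 3 lower, and 13 on the right, 3 higher and 10 lower. Ppbp was not well above background with vehicle or in MuSC, so its values are no measured folds.

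With TSA, ligand genes of Sca1+ cells differed from vehicle in both directions. Cxcl5, a neutrophil attractant, and Ccl21a, a ligand of Ccr7 made by lymphatic vessels and lymphoid stroma, were higher, while Cxcl13, which attracts B cells through Cxcr5, Cxcl9, an interferon-gamma-induced ligand of Cxcr3, and Ccl11 (eotaxin), which attracts eosinophils through Ccr3, were lower. These 5 of 30 passed the threshold (limma, Benjamini-Hochberg adjusted p under 0.05), where 2.98% of all 26108 features tested did (2.71% higher and 0.268% lower). At an unadjusted p under 0.05 there were 18 ligands in each comparison, and of all features 23.2% for TSA and 35.8% for MuSC, against which the later counts of this kind are to be read. The ligands' log2 differences had a median of −0.01 against −0.13 for all features, and 15 were above 0 and 15 below. In MuSC, 13 of 30 ligands passed, 3 higher and 10 lower, where 22.2% of 26105 features did (10.5% higher and 11.7% lower). Their median was −0.52 against −0.04 for all features, with 20 of 30 below 0. Ligand values ran from −1.69 to 3.26 for TSA (the latter Ppbp, not well above background with vehicle) and from −6.31 to 2.17 for MuSC. With either TSA array left out, none of all features passed in limma, so the loss of the 5 ligand calls there is not particular to them. Without vehicle replicate 1, 319 features were higher and 2 lower, with 0 ligands among them, and without vehicle replicate 2 there were 254 and 2, with 1 ligand (Ppbp, adjusted p = 0.0396). In these 4 fits the differences of the 5 could not change sign, since both TSA arrays of each lay on 1 side of both vehicle arrays. The ligand count was 8 with the slide as a replicate block (adding Ccl2, Ccl7 and Ppbp), where 932 features were higher and 166 lower, and 15 with normexp background correction, where 1253 were higher and 5900 lower. Ppbp was well above background on the TSA arrays alone, so its calls in these alternatives are no support. It was 2 with each probe fitted on its own (616 and 38) and 0 when dim features were kept (280 and 3 of 36409), where 18 ligands had an unadjusted p under 0.05.

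**Figure D2:**
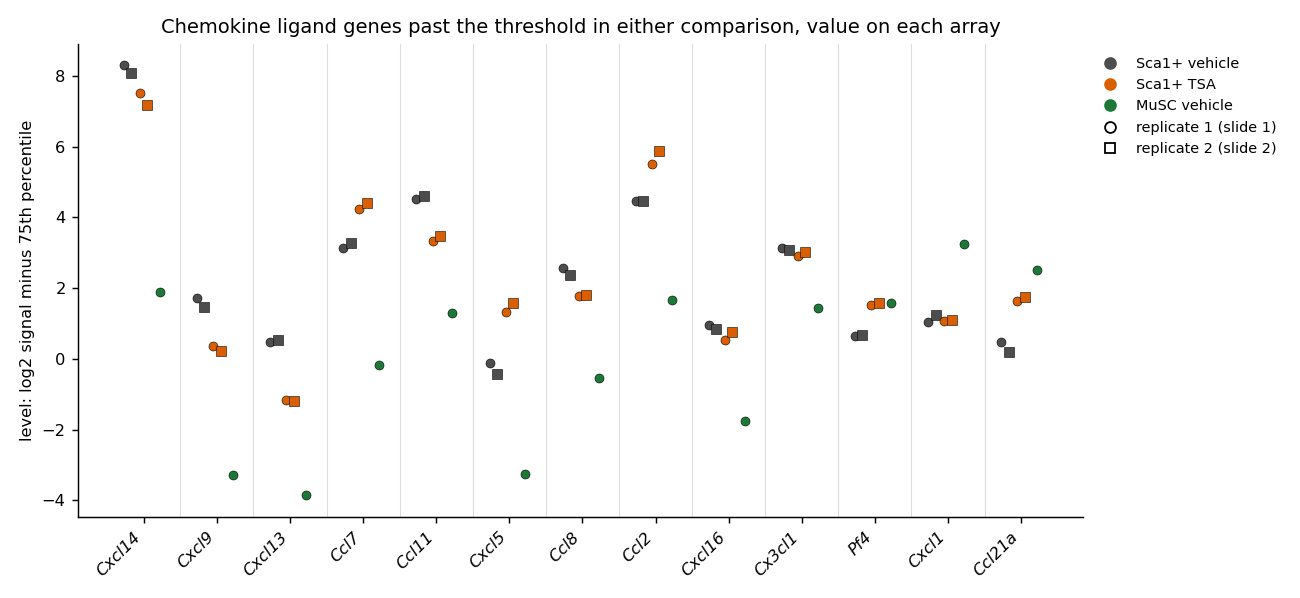
Level on each array (log2 signal minus the array's 75th percentile) of the 13 ligands that passed the threshold in either comparison; circles are replicate 1 on slide 1, squares replicate 2 on slide 2, and colours give the group. Cxcl13, Cxcl9, Ccl11, Cxcl5 and Ccl21a are those that passed for TSA, so the gap between their vehicle and TSA arrays is no separate support. Levels of different genes are not comparable with each other.

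Promoter sequences of 5 ligands that the results below turn on are shown, since neighbouring or related genes among them differed in opposite ways or not at all: Cxcl9 and Cxcl10, 2 Cxcr3 ligands of the same cluster, Cxcl13 and Cxcl14, which were lower in MuSC, and Cxcl1, which was higher there. Each is the stretch of 250 bases before the gene's start, 5′ to 3′ on the gene's strand, from RefSeq on GRCm38.p6. Capitals mark matches, on either strand, to 4 motifs: the NF-kB type (GGG and TTTCC with 2 free bases between), the STAT type (TTC and GAA with 3 free bases between), the interferon-response type (GAAA and GAAA with 2 free bases between) and the TATA type (TATAAA).
Cxcl9 (chr5:92328080-92328329, minus strand): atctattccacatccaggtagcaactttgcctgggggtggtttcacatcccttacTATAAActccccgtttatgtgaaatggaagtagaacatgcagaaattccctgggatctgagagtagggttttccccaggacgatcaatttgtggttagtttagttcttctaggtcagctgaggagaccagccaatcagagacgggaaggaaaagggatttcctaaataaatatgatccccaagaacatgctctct
Cxcl10 (chr5:92348890-92349139, minus strand): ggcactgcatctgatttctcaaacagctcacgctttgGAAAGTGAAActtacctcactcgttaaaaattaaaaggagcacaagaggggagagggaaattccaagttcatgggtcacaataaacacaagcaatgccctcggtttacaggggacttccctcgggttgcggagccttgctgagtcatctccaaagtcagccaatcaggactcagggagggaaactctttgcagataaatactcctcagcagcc
Cxcl13 (chr5:95956689-95956938, plus strand): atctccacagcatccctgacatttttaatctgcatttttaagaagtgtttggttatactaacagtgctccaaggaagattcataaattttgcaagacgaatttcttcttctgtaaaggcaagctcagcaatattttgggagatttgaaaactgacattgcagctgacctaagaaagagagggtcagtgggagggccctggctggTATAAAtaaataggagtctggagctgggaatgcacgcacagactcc
Cxcl14 (chr13:56296552-56296801, minus strand): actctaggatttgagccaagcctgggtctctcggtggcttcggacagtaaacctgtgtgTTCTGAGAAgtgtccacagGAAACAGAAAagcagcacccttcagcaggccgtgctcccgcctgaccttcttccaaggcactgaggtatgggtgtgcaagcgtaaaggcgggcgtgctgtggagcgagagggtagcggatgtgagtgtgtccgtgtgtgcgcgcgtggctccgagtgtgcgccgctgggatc
Cxcl1 (chr5:90890995-90891244, plus strand): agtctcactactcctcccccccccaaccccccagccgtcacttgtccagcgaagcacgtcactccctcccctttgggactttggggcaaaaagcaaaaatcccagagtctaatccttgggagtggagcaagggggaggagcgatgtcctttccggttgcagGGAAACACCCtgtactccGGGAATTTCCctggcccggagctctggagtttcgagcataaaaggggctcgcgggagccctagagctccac
Windows were found for 28 of the 39 ligands. A ligand counts where any of its windows held the motif, while the shares beside it are of single windows, so these are unlike units. The NF-kB type was in 5 of these 28 (Ccl20, Ccl9, Cxcl1, Cxcl2 and Cxcl3) and in 1.41% of all 32851 windows. The interferon-response type was in 3 (Ccl19, Cxcl10 and Cxcl14), against 2.98% of all windows, the STAT type in 2 (Ccl17 and Cxcl14), against 7.02%, and the TATA type in 10, against 12.4%. In Cxcl1 the NF-kB type matches began 89 and 71 bases before the start, and in Cxcl10 the interferon-response type match began 213 bases before it. A match describes these letters only, and no match says only that they are not in this window.

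The monocyte-attracting ligands of Ccr2, Ccl2, Ccl7, Ccl8 and Ccl12, lie side by side with Ccl11 and Ccl1 on chromosome 11, their probes within 81850650 to 81990227 in mm9. None of the 4 passed for TSA in limma (4 had an unadjusted p under 0.05), and 3 of 4 were lower in MuSC. Ccl2 (MCP-1) was at 4.45 and 4.48 on the vehicle Sca1+ arrays, 5.52 and 5.88 with TSA and 1.67 in MuSC. Ccl7 (MCP-3) was at 3.12 and 3.27 with vehicle, 4.25 and 4.40 with TSA and −0.18 in MuSC. For both genes each TSA array was above each vehicle array, and the MuSC array was below all 4. The TSA difference of Ccl2 was 1.23 ± 0.19 (adjusted p = 0.0632; 1.06 on slide 1 and 1.40 on slide 2) and that of Ccl7 was 1.13 ± 0.16 (adjusted p = 0.0522; 1.13 on each slide), so neither passed in limma. Both passed in 5 of the alternatives: a replicate block for the slide (adjusted p = 0.0469 for Ccl2 and 0.0446 for Ccl7), quantile normalization (0.0481 and 0.0365), the deposited table (0.0446 and 0.0357), features well above background on all arrays (0.0474 and 0.0396) and normexp (4.9e-05 and 0.000199). Without any 1 Sca1+ array their adjusted p lay between 0.137 and 0.300. In MuSC, Ccl2 was lower by 6.93-fold (log2 difference −2.79 ± 0.23, limma adjusted p = 0.00421) and Ccl7 by 10.3-fold (−3.37 ± 0.20, adjusted p = 0.00205).

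Ccl8 (MCP-2) went the other way with TSA without passing the threshold. Its level was 2.58 and 2.36 with vehicle, 1.77 and 1.80 with TSA and −0.53 in MuSC, with no overlap between groups. The TSA difference was −0.68 ± 0.16 (limma adjusted p = 0.124), and in MuSC Ccl8 was lower by 8.02-fold (−3.00 ± 0.20, adjusted p = 0.0026). Ccl12 (MCP-5) differed by 0.74 ± 0.16 with TSA (adjusted p = 0.104) and by −0.15 ± 0.19 in MuSC (adjusted p = 0.63).

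Ccl11 lies between Ccl7 and Ccl12 in this cluster (probe at chromosome 11, 81876072 to 81876131). It was at 4.52 and 4.61 with vehicle, 3.32 and 3.47 with TSA and 1.28 in MuSC. The TSA arrays lay below both vehicle arrays, and the MuSC array lay below those. Ccl11 fell 2.25-fold with TSA (log2 difference −1.17 ± 0.15, limma adjusted p = 0.0449; −1.20 and −1.14 on slides 1 and 2) and was 9.75-fold lower in MuSC (−3.29 ± 0.19, adjusted p = 0.002). Without any 1 Sca1+ array the TSA difference ran from −1.24 to −1.10, at an adjusted p of 0.123 to 0.240. So the 5 tested genes of this cluster did not share a direction with TSA: Ccl2, Ccl7 and Ccl12 were above vehicle on both slides, Ccl11 and Ccl8 below. Of the other eotaxin genes, Ccl24 was well above background on 4 arrays and differed by 0.07 ± 0.38 with TSA and 1.13 ± 0.47 in MuSC (adjusted p = 0.923 and 0.173). Its levels were −4.98 and −3.99 with vehicle, −4.26 and −4.57 with TSA and −3.36 in MuSC, so the vehicle and TSA arrays overlapped.

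**Figure D3:**
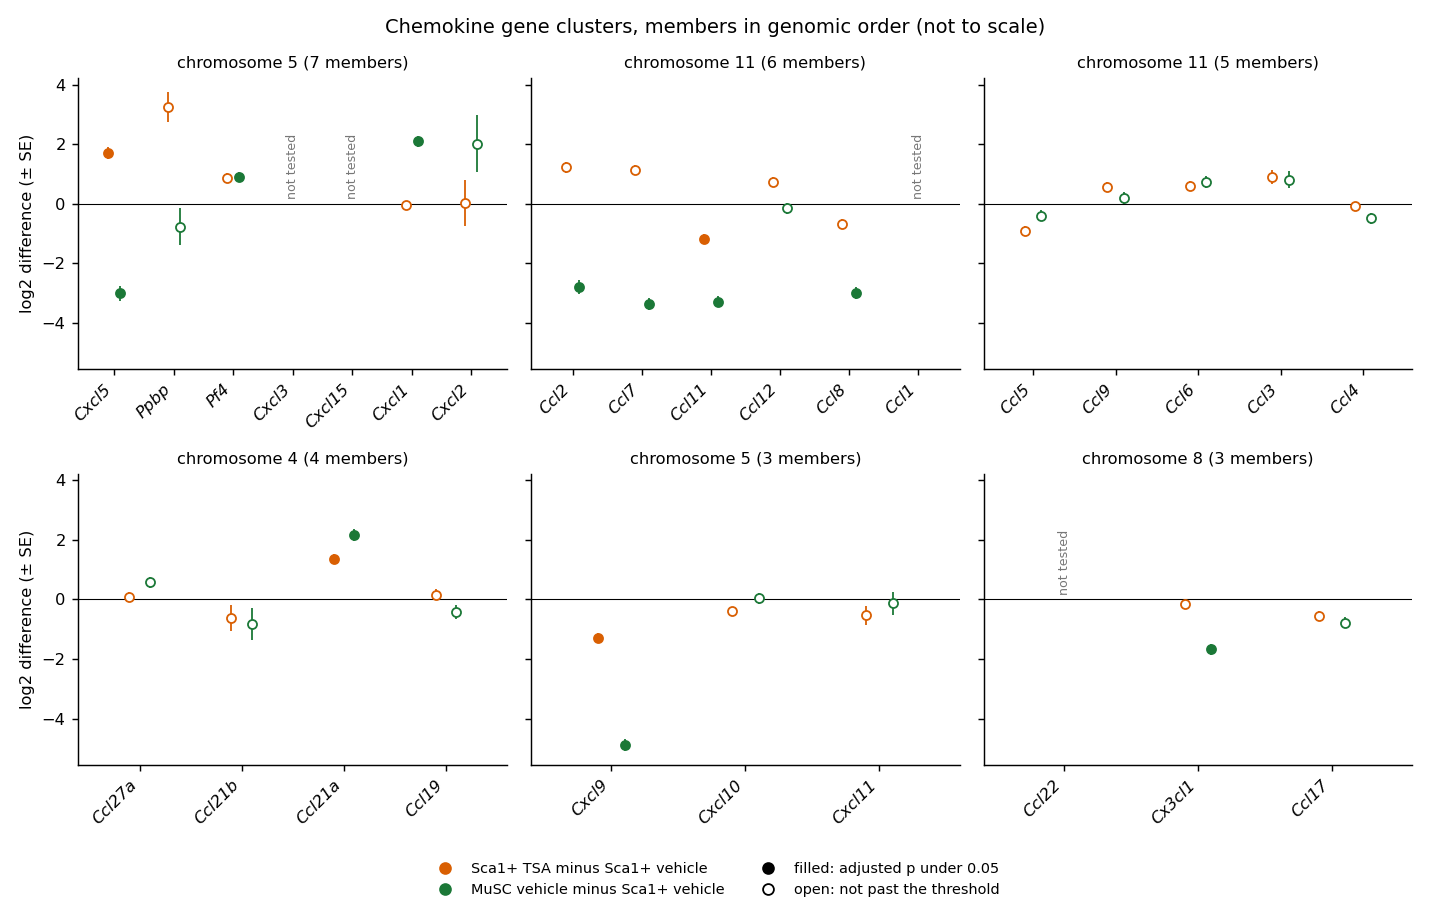
Log2 differences (± SE of the limma fit) of ligands in the 6 loci that hold at least 3 of them, in genomic order and not to scale; orange is TSA minus vehicle in Sca1+ cells, green is MuSC minus vehicle Sca1+ cells, and filled points passed the threshold. Within a cluster neighbours differ: Ccl11 was lower and Ccl2 and Ccl7 were above vehicle with TSA, and Cxcl9 was lower while Cxcl10 and Cxcl11 did not pass in either comparison.

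A second CC cluster on chromosome 11 (83339296 to 83478111) holds Ccl5, Ccl9, Ccl6, Ccl3 and Ccl4, inflammatory CC ligands that macrophages and T cells make. None of the 5 passed in either comparison in limma (4 for TSA and 2 for MuSC had an unadjusted p under 0.05). Ccl5 (RANTES) was at 0.24 and 0.09 with vehicle, −0.69 and −0.80 with TSA and −0.23 in MuSC, with the TSA arrays lowest; its TSA difference was −0.91 ± 0.16 (limma adjusted p = 0.076). Ccl3, Ccl6 and Ccl9 differed by 0.55 to 0.89 with TSA (adjusted p between 0.144 and 0.176), and Ccl4 by −0.08 ± 0.16 (adjusted p = 0.774), from levels of −1.42 and −1.54 with vehicle, −1.62 and −1.50 with TSA and −1.97 in MuSC. In MuSC the 5 ran from −0.49 to 0.81. Of the macrophage markers, none of 18 tested passed with TSA (median 0.59; 12 had an unadjusted p under 0.05 in limma), and in MuSC 2 were higher (Mertk by 2.50, Mrc1 by 1.09) and 1 lower (Itgam by −1.54), with a median of 0.62. The summed level of the list, added over genes as signal relative to the 75th percentile, was 187 and 254 with vehicle, 151 and 155 with TSA and 113 in MuSC. Itgam alone made up 52.5% to 79.9% of it, and without Itgam the sum was 41.8 and 51.2 with vehicle, 49.97 and 49.5 with TSA and 53.6 in MuSC. Cd163 was below background on every array. Their part in the results was not tested.

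The ELR ligands of Cxcr2 lie with Ppbp and Pf4 in a cluster on chromosome 5 (91190490 to 91334593). Cxcl5 (LIX, probe at 91190490 to 91190549) was at −0.11 and −0.42 with vehicle, 1.31 and 1.57 with TSA and −3.27 in MuSC. Both TSA arrays were above both vehicle arrays, and the MuSC array was below all. Cxcl5 rose 3.26-fold with TSA (log2 difference 1.71 ± 0.20, limma adjusted p = 0.0338; 1.42 and 1.99 on slides 1 and 2) and was 8.05-fold lower in MuSC (−3.01 ± 0.24, adjusted p = 0.00401). Leaving out 1 Sca1+ array gave a TSA difference of 1.55 to 1.86 at an adjusted p of 0.0935 to 0.219.

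Cxcl1 (KC), at the other end of the cluster, showed the reverse order between the sorted populations. Its level was 1.05 and 1.23 with vehicle, 1.06 and 1.11 with TSA and 3.24 in MuSC, so the 4 Sca1+ arrays overlapped and MuSC stood above them. It was 4.29-fold higher in MuSC (2.10 ± 0.19, limma adjusted p = 0.00519) and differed by −0.05 ± 0.16 with TSA (adjusted p = 0.854), the smallest absolute TSA difference among the 27 ligands well above background on all arrays. Cxcl2 (MIP-2), its neighbour, was at −5.89 and −3.66 with vehicle, −4.76 and −4.74 with TSA and −2.76 in MuSC. It was well above background on 3 of these 5 arrays, and the vehicle arrays lay on either side of the TSA arrays; it differed by 2.02 ± 0.95 in MuSC (adjusted p = 0.215). Cxcl3 and Cxcl15 were not well above background on any array.

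Pf4 (platelet factor 4) and Ppbp (pro-platelet basic protein) are stored in platelet granules, and macrophages also make Pf4. Pf4 was at 0.65 and 0.67 with vehicle, 1.53 and 1.57 with TSA and 1.57 in MuSC. Replicates lay close together and the vehicle arrays were lowest. Pf4 was 1.87-fold higher in MuSC (0.90 ± 0.18, limma adjusted p = 0.032), a call that was lost without any 1 of the Sca1+ arrays (adjusted p between 0.0842 and 0.0948) and when dim features were kept (0.0922). With TSA its difference was 0.88 ± 0.14 (adjusted p = 0.0685). Ppbp was at −6.66 and −5.26 with vehicle, −2.81 and −2.59 with TSA and −6.72 in MuSC, and was well above background only on the TSA arrays. It was at least 3.43-fold higher with TSA than with vehicle: this bound sets the TSA mean against the lowest signal among spots well above background on the vehicle arrays, or the probe's own signal where that was higher. The fitted test gave a limma adjusted p of 0.064, and 0.0192 with the slide as a replicate block. Ppbp was tested only because the TSA arrays had it well above background, so these p-values are no support for a rise. Of 6 platelet and megakaryocyte markers tested, 1 was called higher with TSA (Gp9, at least 1.25-fold) and none lower. Gp9 too was tested only because the TSA arrays had it well above background, so its call is no support for a rise. Gp5 was below background on every array. Their part in the result was not tested.

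The interferon-induced ligands of Cxcr3 lie within 92752191 to 92788626 on chromosome 5. Cxcl9 (MIG, probe at 92752191 to 92752250) was at 1.71 and 1.48 with vehicle, 0.35 and 0.21 with TSA and −3.30 in MuSC. The 3 groups did not overlap. Cxcl9 fell 2.47-fold with TSA (−1.31 ± 0.17, limma adjusted p = 0.043; −1.35 and −1.26 on slides 1 and 2) and was 29.7-fold lower in MuSC (−4.89 ± 0.21, adjusted p = 0.00149). A further Cxcl9 probe gave −1.13 and −4.11. Without 1 Sca1+ array the TSA difference ran from −1.42 to −1.19 at an adjusted p of 0.125 to 0.273.

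Its neighbours Cxcl10 (IP-10) and Cxcl11 (I-TAC) did not pass in either comparison. Cxcl10 was at 1.37 and 1.28 with vehicle, 0.90 and 0.97 with TSA and 1.37 in MuSC, so that MuSC lay beside the vehicle arrays; its differences were −0.39 ± 0.15 for TSA (limma adjusted p = 0.222) and 0.04 ± 0.18 for MuSC (adjusted p = 0.897). Cxcl11, which in C57BL/6 mice carries a frameshift and gives no functional protein, differed by −0.53 ± 0.32 with TSA and −0.13 ± 0.39 in MuSC (adjusted p = 0.372 and 0.843). Of 20 interferon response genes tested, none passed with TSA in limma (median −0.29; 5 had an unadjusted p under 0.05), and 16 were lower in MuSC (median −1.47). Oas1a, an antiviral enzyme, differed there by −3.06 ± 0.19, Ifit3 by −2.70 ± 0.18 and Ifit1 by −2.26 ± 0.23, both interferon-induced RNA-binding proteins, and Usp18, which removes Isg15 from proteins, by −2.22 ± 0.23.

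Among the homeostatic ligands, which shape lymphoid tissue and stromal niches, 1 was higher and 1 lower of 6 tested with TSA, and 1 was higher and 2 were lower in MuSC. Cxcl13 (probe at chromosome 5, 96389861 to 96389920) was at 0.48 and 0.54 with vehicle, −1.18 on each TSA array and −3.85 in MuSC. The replicates of Cxcl13 differed by far less than the groups, a gap that the call itself rests on and no separate support. It fell 3.23-fold with TSA (−1.69 ± 0.15, limma adjusted p = 0.0165, the lowest among the ligands; −1.65 and −1.73 on slides 1 and 2) and was 20.6-fold lower in MuSC (−4.36 ± 0.18, adjusted p = 0.00149). Without 1 Sca1+ array the TSA difference stayed between −1.72 and −1.66, at an adjusted p of 0.0823 to 0.158. Cxcl14 (BRAK, chromosome 13, 56390078 to 56390137), a ligand made by stromal and epithelial cells, was at 8.30 and 8.09 with vehicle, 7.52 and 7.17 with TSA and 1.88 in MuSC. It was 79.4-fold lower in MuSC (−6.31 ± 0.24, limma adjusted p = 0.00149), the largest difference of any tested ligand in that comparison, and its TSA difference was −0.85 ± 0.20 (adjusted p = 0.122).

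Of the 16 fibroadipogenic progenitor markers, 1 was lower with TSA (Pi16, a marker of adventitial fibroblasts, by −1.37) and none higher, with a median of −0.86. In MuSC 15 were lower, among them Pi16 by −6.91, Lum by −6.75, Pdgfra by −6.49 and Col14a1 by −6.32, with a median of −4.32; Tcf7l2 was the exception (−0.32, adjusted p = 0.544). The summed level of the list was 5177 and 7479 with vehicle, 2924 and 3283 with TSA and 485 in MuSC, and no marker was below background on every array. Their part in the chemokine results was not tested.

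Ccl21a and Ccl21b are near-identical copies with Ccl27a and Ccl19 on chromosome 4 (41716345 to 42250164), so which copy a probe reports is uncertain. The Ccl21a probe (42232117 to 42232176) was at 0.47 and 0.21 with vehicle, 1.63 and 1.75 with TSA and 2.50 in MuSC. The vehicle arrays were lowest and the MuSC array was highest. It rose 2.56-fold with TSA (1.36 ± 0.17, limma adjusted p = 0.0413; 1.17 and 1.55 on slides 1 and 2) and was 4.49-fold higher in MuSC (2.17 ± 0.21, adjusted p = 0.00617). Without 1 Sca1+ array the TSA difference was 1.23 to 1.49 at an adjusted p of 0.103 to 0.264. The Ccl21b probe was at 5.94 and 7.11 with vehicle, 5.76 and 6.06 with TSA and 5.70 in MuSC, with overlap between vehicle and TSA. It did not pass (−0.62 ± 0.44 for TSA and −0.82 ± 0.53 for MuSC, adjusted p = 0.427 and 0.341). Of 6 lymphatic endothelial markers, Mmrn1 was higher with TSA by 1.25 and Prox1 passed the test, but Prox1 was well above background on no vehicle array and 1 TSA array and has no measured fold there. In MuSC, Prox1 was at least 14.2-fold higher, Reln at least 3.66-fold, Mmrn1 was higher by 2.52 on the log2 scale, and Pdpn was lower by −1.65. Lyve1 (−0.31) and Flt4 (−0.74, not well above background in MuSC) were below vehicle without passing. The list's median in MuSC was 1.11, or 0.78 with genes below background in 1 group at their bound. Their summed level was 42.4 and 34.7 with vehicle, 38.9 and 36.6 with TSA and 13.4 in MuSC, of which Pdpn made up 90.7% to 99.4%. Without Pdpn it was 0.25 and 0.228 with vehicle, 0.498 and 0.457 with TSA and 1.25 in MuSC. No marker was below background on every array, and their part in the Ccl21a result was not tested.

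Ccl19, also a ligand of Ccr7, was at 1.42 and 1.10 with vehicle, 1.52 and 1.32 with TSA and 0.85 in MuSC. Its vehicle and TSA arrays overlapped (difference 0.16 ± 0.19, limma adjusted p = 0.633). Cxcl12 (SDF-1, the ligand of Cxcr4 and Ackr3) had 2 probes that disagreed. The probe used, at chromosome 6, 117131227 to 117131286, was at 4.65 and 4.31 with vehicle, 5.14 and 4.99 with TSA and 3.75 in MuSC, and differed by 0.59 ± 0.19 with TSA and −0.73 ± 0.24 in MuSC (adjusted p = 0.191 and 0.105). The other probe, at 117125026 to 117125085, was at 4.61 and 4.48, 4.26 and 4.48, and 2.23 on the same arrays. Fitted on its own it differed by −0.17 ± 0.17 with TSA and by −2.32 ± 0.21 in MuSC (adjusted p = 0.571 and 0.00595), so that Cxcl12 was lower in MuSC by this probe and did not pass by the probe used.

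**Figure D4:**
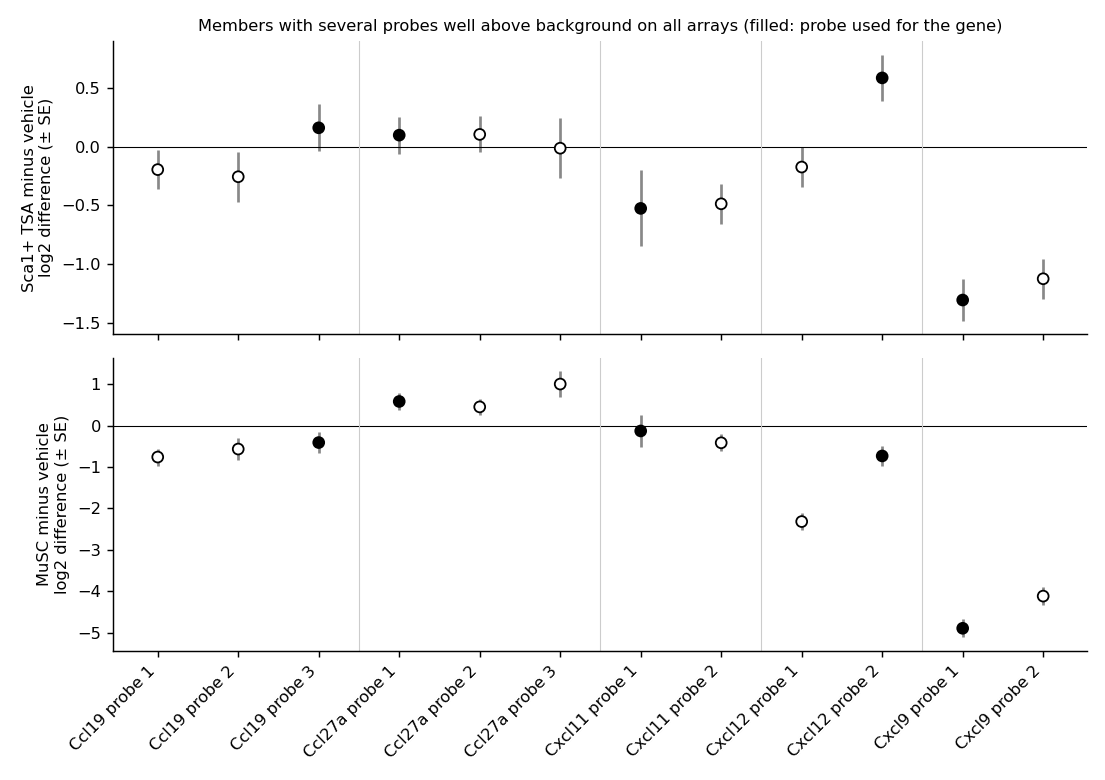
Log2 differences (± SE, each probe fitted on its own with limma) for ligands with several probes well above background on all 5 arrays, TSA minus vehicle above and MuSC minus vehicle below; filled points are the probes used for the gene. The 2 Cxcl12 probes gave −2.32 and −0.73 in MuSC, and those of Cxcl9 gave −4.89 and −4.11.

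Both membrane-anchored ligands were lower in MuSC, and with TSA neither passed in limma, 0 of them at an unadjusted p under 0.05. Cx3cl1 (fractalkine), the ligand of Cx3cr1, was at 3.14 and 3.07 with vehicle, 2.90 and 3.02 with TSA and 1.44 in MuSC. It was 3.17-fold lower in MuSC (−1.67 ± 0.19, limma adjusted p = 0.0082) and differed by −0.15 ± 0.15 with TSA (adjusted p = 0.577). Cxcl16, the ligand of Cxcr6, was at 0.96 and 0.84 with vehicle, 0.53 and 0.75 with TSA and −1.77 in MuSC. The Sca1+ groups lay close together and MuSC stood below both; the differences were −2.67 ± 0.21 (6.36-fold lower, adjusted p = 0.00355) in MuSC and −0.26 ± 0.17 (adjusted p = 0.394) with TSA. Endothelial markers, genes of a known source of fractalkine, were lower in MuSC in 12 of 16 and higher in 1 (median −1.39), and with TSA 2 of 16 were higher (Vwf by 2.96, Plvap by 1.89; median 0.87). Their summed level was 341 and 375 with vehicle, 600 and 654 with TSA and 169 in MuSC, no marker was below background on every array, and their part in the result was not tested.

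Of the skin, gut and T cell attracting CC ligands, 3 were tested and none passed in limma (1 for TSA and 2 for MuSC had an unadjusted p under 0.05). Ccl27a was at 0.81 and 0.68 with vehicle, 0.88 and 0.81 with TSA and 1.33 in MuSC; its differences were 0.10 ± 0.15 with TSA and 0.58 ± 0.19 in MuSC (adjusted p = 0.712 and 0.103). Ccl17 and Ccl25 differed by −0.55 and −0.18 with TSA and by −0.79 and −0.54 in MuSC. Ccl17 came near the threshold in MuSC (limma adjusted p = 0.0502). Ccl1, Ccl20, Ccl22, Ccl28, Cxcl3, Cxcl15, Cxcl17 and Xcl1 were not well above background on any of the 5 arrays. Ccl26 was well above background on TSA replicate 1 alone, at −3.00, with −6.62 to −7.78 on the other arrays, and was not tested.

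The receptors give the other side of the axis. Of 19 chemokine receptor genes, 13 were tested. None passed with TSA in limma (median 0.47, or 0.22 with genes below background in 1 group at their bound; 5 had an unadjusted p under 0.05), and Ccr1, Cxcr1, Cxcr2 and Xcr1 were below background on every array. In MuSC (median 0.56, or 0.39 in that way), 2 were higher: Cxcr4, the receptor of Cxcl12, was at −2.04 and −1.79 with vehicle, −2.05 and −1.73 with TSA and 0.17 in MuSC (difference 2.08 ± 0.24, adjusted p = 0.00901), and Ccrl2, which binds chemerin, differed by 1.19 ± 0.18 (adjusted p = 0.0162). The Cxcr4 arrays of both Sca1+ groups overlapped, and MuSC stood above them. The 2 of 13 receptors higher in MuSC stand beside 10.5% of all features.

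The atypical receptors, which bind and remove ligands without G protein signalling, were lower in MuSC in 4 of 4 (median −2.16). Ackr2, which degrades inflammatory CC ligands, among them Ccl2 and Ccl11, was at 1.89 and 1.56 with vehicle, 0.04 and 0.12 with TSA and −3.50 in MuSC. The 3 groups did not overlap. It fell by 1.65 ± 0.18 on the log2 scale with TSA (limma adjusted p = 0.0296) and was lower in MuSC (−5.23 ± 0.22, adjusted p = 0.00149). Ackr4, a scavenger of Ccr7 ligands, differed by −3.16 ± 0.32 in MuSC. Ackr3, which takes up Cxcl12, differed there by −1.15 ± 0.25, and Ackr1, the Duffy antigen receptor, by −1.14 ± 0.20. With TSA none of these passed in limma. Ackr1 was above vehicle by 0.84 ± 0.16 (limma adjusted p = 0.094), while Ackr3 differed by −0.53 ± 0.20 and Ackr4 by −0.75 ± 0.26.

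Of 18 NF-kB response genes tested, 2 were higher with TSA and none lower (median 0.16). Traf1, a signalling adaptor of TNF receptors, was at −1.16 and −1.41 with vehicle, −0.0077 and 0.16 with TSA and 1.70 in MuSC, and rose by 1.36 ± 0.18 with TSA (limma adjusted p = 0.0431). Il1b, the cytokine interleukin 1 beta, was not well above background with vehicle. It was at least 2.08-fold higher with TSA and at least 2.36-fold higher in MuSC (limma adjusted p = 0.0376 and 0.0136). Il1b was tested only because the TSA and MuSC arrays had it well above background, so these p-values are no support for a rise. In MuSC, 6 of 18 were higher (Traf1 by 2.99, Il1b, Vcam1 by 1.99, and Nfkbiz by 1.33 among them) and 3 lower (Icam1 by −2.91, Tnfaip2 by −2.84 and Ptgs2 by −2.69), with a median of 0.52. Vcam1 is counted among the satellite cell markers as well. The TSA calls of Ackr2, Traf1 and Il1b were lost without any 1 of the Sca1+ arrays and when dim features were kept.

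Of the other cells the gate could hold, T, B and NK cell genes had 1 of 11 called higher with TSA, at a list median of −0.46. This was Ms4a1, a B cell surface protein, at least 3.36-fold higher. Ms4a1 was tested only because the TSA arrays had it well above background, so its call is no support for a rise. In MuSC 2 were called lower, where 11.7% of all features were. These were Cd2, by −1.07, and Ms4a1, which was not well above background in either group. The 5 of 13 granulocyte and mast cell genes higher with TSA were all mast cell genes. Among them, Mcpt4 was higher by 5.92 ± 0.15. Cma1 was at least 46.3-fold and Fcer1a at least 14.5-fold higher, both not well above background with vehicle. Both were tested only because the TSA arrays had them well above background, so their calls are no support for a rise. Cpa3, well above background on 1 of 2 vehicle arrays, had a fitted difference of 6.89 ± 0.63. The granulocyte genes (S100a8, S100a9, Ngp, Camp, Mpo, Elane and Retnlg) did not pass with TSA. They ran from −0.81 (Elane) to 0.19 (Mpo), and the list's median was 0.19. The summed level of that list was 21.4 and 36.7 with vehicle, 48.4 and 50.04 with TSA and 14.9 in MuSC, or 12.0 and 11.9, 41.2 and 39.5, and 9.95 without Elane, its brightest gene on average. The lymphocyte list summed to 24.1 and 46.3, 21.5 and 21.9, and 19.4 in the same order, with Cd3d, Cd3g and Klrb1c below background on every array. None of 6 dendritic cell genes passed with TSA in limma (3 at an unadjusted p under 0.05), and 2 were higher in MuSC. Satellite cell markers summed to 22.8 and 20.2 with vehicle, 69.6 and 70.8 with TSA and 438 in MuSC, and pericyte and smooth muscle markers to 78.8 and 85.4, 642 and 593, and 1675. The part of these cells in the ligand results was not tested.

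**Figure D5:**
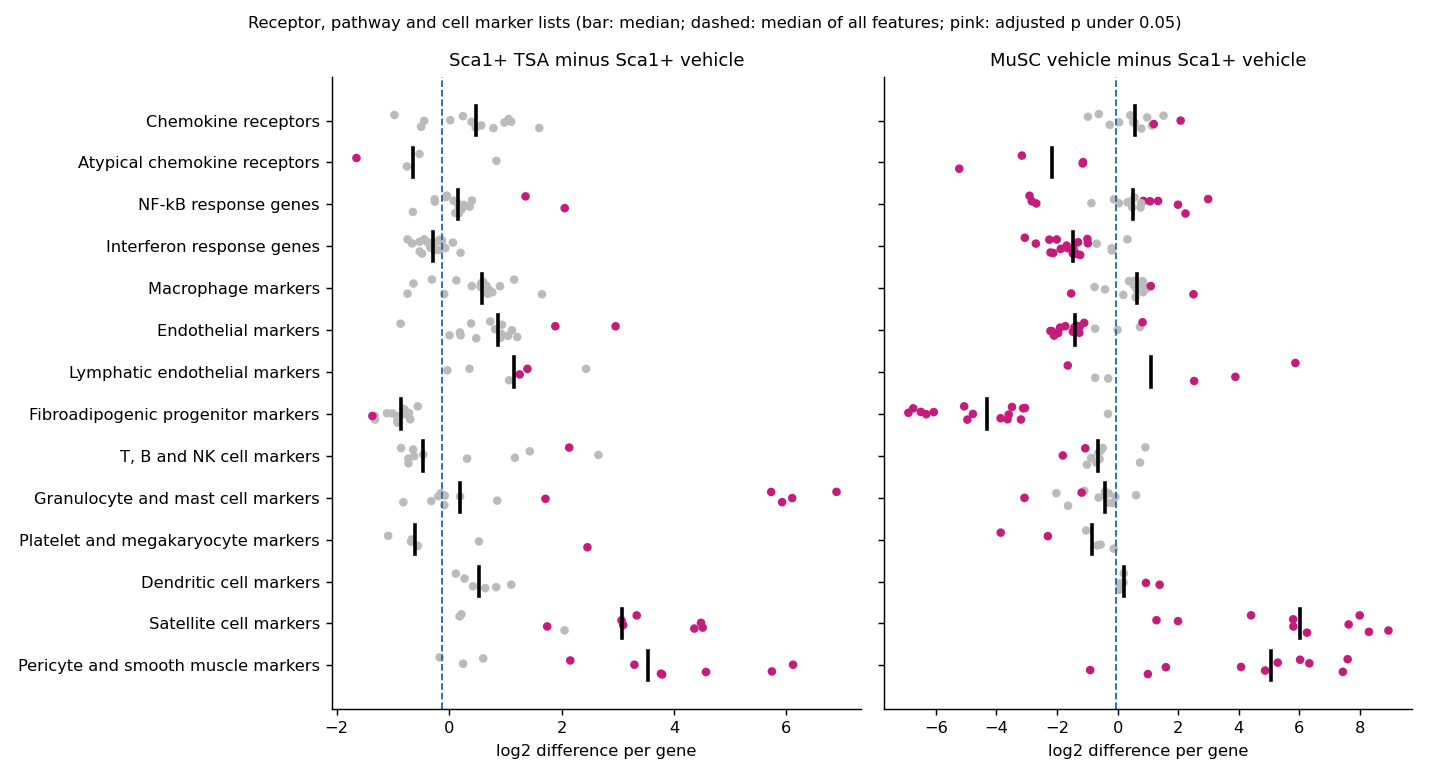
Log2 difference of each tested gene in the receptor, pathway and cell marker lists, TSA minus vehicle in Sca1+ cells (left) and MuSC minus vehicle Sca1+ cells (right); black bars are list medians, the dashed line is the median of all features (−0.13 and −0.04), and pink points passed the adjusted threshold of 0.05. Differences against a group not well above background are fitted values and no measured folds. Receptors hold 0 such points with TSA and 2 in MuSC, and atypical receptors hold 1 and 4.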

How the data were processed

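RNA of sorted mdx muscle cells was hybridised to 5 one-colour Agilent arrays, replicate 1 of each group on slide 1 and replicate 2 on slide 2. Per the file headers, Agilent Feature Extraction 10.7.3.1 gave each spot's intensity, then subtracted background and removed spatial trends to give the processed intensity; the authors' deposited value table holds log2 values with a shared median of 4.67 in every column, which rank spots as the scanner values do (Spearman correlation 1), and was an alternative. The tool behind that table is not given in the sources used here, and its direction and centring over genes were read from this match.

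The values used were log2 processed signal minus the array's 75th percentile over 59305 non-control spots. Spots flagged as outliers (0.196% to 0.334%) were left out and spots of a probe averaged. A gene with several probes was represented by the one of highest average level. The RefSeq table named 26413 of 55681 probes by accession and 574 through another probe of that design name; the others kept the design's name, which can be old. Of 36409 features, 26108 passed the filter on dim probes. The test was limma 3.58.1 (lmFit and eBayes in R 4.3.3, two-sided, Benjamini-Hochberg threshold 0.05) over 5 arrays in 3 groups, with 2 residual and 2.30 prior degrees of freedom. The MuSC array is assumed to vary like the Sca1+ arrays. The fit was tested on simulated data. Probe positions are in mm9, promoters in GRCm38.p6. Normexp (offset 50) used median spot signals in place of the planned mean signals.

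The ligands, role groups and lists were chosen with earlier results of these data known. Every ligand is accounted for. Values on every array are given for those past the threshold, those with an absolute difference of at least 1, and the 5 with the smallest absolute TSA difference; of the lists, at most 4 called genes in each direction are named. Ccl21c and Ccl27b were not analysed here. Alternatives were other background corrections, scalings, filters, probe rules, the slide as a block, fewer arrays and the deposited table.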

Additional observations from a re-analysis of the deposited data

How the results depend on the processing

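Calls for TSA depended on the processing more than those for MuSC. Of 30 ligands, 5 passed for TSA (2 higher, 3 lower); the count was 15 with normexp (8 higher, 7 lower), 0 with no filter on dim features, 2 with each probe on its own, 8 with the slide as a replicate block (5 higher, 3 lower) and 0 to 1 with 1 Sca1+ array left out. It was 7 with quantile normalization, with the deposited table and with features well above background on all arrays (4 higher and 3 lower each time, with Ccl2 and Ccl7 added), and 5 with probes averaged or the 4 Sca1+ arrays alone. The MuSC count of 13 ran from 12 to 15 over all these settings, and of these 13 Pf4 was the call lost, with no filter or 1 array left out. For receptors and pathway lists, the TSA count of 3 was 9 with normexp and 0 with no filter or with 1 array left out; the MuSC count of 31 was 20 with no filter and 20 to 22 with 1 array left out. Normexp moved the median of all features for TSA from −0.13 to −0.25 and turned the split of all calls from 708 higher and 70 lower to 1253 and 5900; the cause was not tested.

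With 1 Sca1+ array left out, a difference that passed could not change sign, and in the other settings none that passed changed sign. Those that had not passed and did were, for TSA with normexp, Ccl12 (−0.24), Ccl24 (−0.57), Cx3cl1 (0.027), Cxcl1 (0.056) and Cxcl2 (−0.67); with probes averaged, Ccl19 (−0.10) and Ccl25 (0.010). Leaving out 1 Sca1+ array, TSA values ran from −0.43 to 0.57 for Ccl24, −1.09 to 1.15 for Cxcl2, −0.0032 to 0.32 for Ccl19, −0.14 to 0.035 for Cxcl1 and −0.38 to 0.013 for Ccl25. For MuSC they were Ccl25 with probes averaged (0.12), Cxcl11 with the replicate block (0.15), and with 1 array left out Cxcl10 (−0.00082 to 0.082) and Cxcl11 (−0.51 to 0.25).

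Whether replicate numbers pair the arrays cannot be settled with 2 pairs; deviations of the 2 Sca1+ groups between slides correlated at 0.347 across genes, which are not independent. With the replicate block the MuSC count stayed at 13. Of the 39 ligands, 9 were too dim to test.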
